A study of Mus musculus with 2 samples.

Results

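The nuclear-encoded subunits of the mitochondrial respiratory chain were examined in pooled dorsal root ganglion (DRG) neurons of mice. Genes were taken by symbol, as the Nduf genes of complex I, Sdha to Sdhd of complex II and the Uqcr genes of complex III. For complex IV they were Cox genes with a number from 4 to 8 followed by a, b or c, which takes no Cox4 gene. For complex V they were the Atp5 genes. This gave 83 genes, measured on 110 transcript rows, of 24411 genes in all. The symbols also took Cox7a2l, Ndufa4l2, Atp5s and Atp5sl, which are related or assembly genes rather than subunits, and sums and counts include them. Both groups were C57BL/6 mice (C57BL/6J in the study's methods), male and 6 to 8 weeks old, injected intraperitoneally with 200 µl of saline on days 0 and 14 and harvested on day 28. The alum-injected group received 50% alum, an aluminium salt adjuvant, and its label also carries the word Naïve. The alum + KLH-immunized group received the same alum and, at 100 µg, KLH (keyhole limpet hemocyanin), a foreign protein that serves as antigen. Neurons were enriched from digested thoracic and lumbar ganglia on an albumin cushion, B lymphocytes were removed with beads, and the cells of 10 mice were pooled into 1 library per group. With 1 library per group there is no replicate check of any difference and no test was made. Values below are TPM, transcript abundance per transcript length scaled to 1000000 per library, summed per gene. They are given for the alum-injected pool first and the alum + KLH-immunized pool second.

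The respiratory chain sits in the inner mitochondrial membrane. Complexes I and II pass electrons from NADH and succinate to ubiquinone, complex III passes them on to cytochrome c, and complex IV gives them to oxygen, while complex V makes ATP from the proton gradient that complexes I, III and IV build. Most subunits are encoded in the nucleus, made in the cytosol and imported, and sensory neurons with long axons are known for a high demand for the ATP they help to make. Subunits encoded by mitochondrial DNA were not analysed here.

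The labelled cell type was checked on marker genes. All 8 neuron markers were above 3 TPM in both pools, led by the neurofilament gene Nefl at 5259 and 5048 TPM and the synaptic gene Snap25 at 4057 and 4279 TPM. Glial markers were present as well. Pmp22 of Schwann cells was at 1062 and 1021 TPM and Fabp7 of satellite glia at 953 and 888 TPM. Of the 8 Schwann cell markers, 5 were above 3 TPM in both pools, as were all 6 satellite glia markers. The Schwann cell markers Sox10, Mag and Prx stayed at or below 3 TPM in both pools. The levels below thus belong to a neuron-enriched mixture. The 6 satellite glia markers summed to 1479.7 and 1365 TPM, the 8 Schwann cell markers to 2171 and 2131 TPM, and the 8 neuron markers to 13830.5 and 13582 TPM. The 7 erythroid markers summed to 10.2 and 3.05 TPM and the 5 endothelial markers to 10.2 and 7.24 TPM. None of the 9 skeletal muscle markers, 5 macrophage markers or 3 brown fat markers passed 3 TPM in either pool, and Ckm, the muscle creatine kinase, was listed at 0 in both. The part of these mixtures in the results below was not tested, and fewer cells of a type cannot be told apart from less RNA per cell.

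Respiratory chain transcripts took nearly the same share of both libraries. The 83 genes summed to 26579 and 26068 TPM, or 2.66% and 2.61% of all transcripts, a log2 ratio of alum + KLH over alum of -0.03. Complex I held the most, with 10357 and 10226 TPM over 38 genes, and complex V followed with 7979 and 7831 TPM over 17 genes. Complex IV was at 5218 and 4973 TPM over 16 genes, complex III at 2314 and 2296 TPM over 8 genes, and complex II at 711 and 741 TPM over 4 genes. The log2 ratio of the summed level was -0.02 for complex I, 0.06 for complex II, -0.01 for complex III, -0.07 for complex IV and -0.03 for complex V. The signs for complexes I and III turned when the pools were rescaled to a common median ratio, and the sign for complex II turned when TPM was taken relative to Hprt. Ndufa4, named for complex I but now placed in complex IV, carried 11.8% and 11.4% of the whole sum. With Ndufa4 and Ndufa4l2 counted in complex IV, complex I stood at 7217 and 7261 TPM and complex IV at 8359 and 7938 TPM, so the order of these complexes depends on where this gene is placed.

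**Figure D1:**
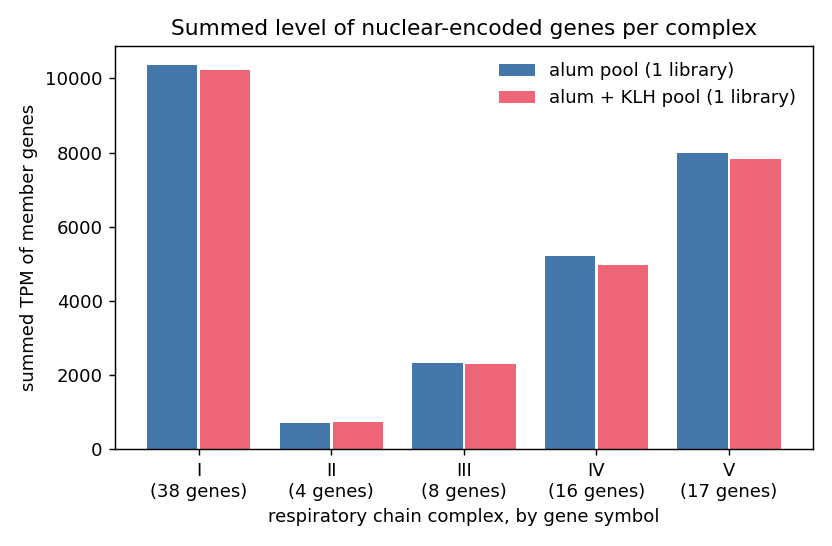
Summed TPM of the member genes of each respiratory chain complex, assigned by gene symbol, with a bar for each pool (1 library each, no error bars). Complex I is highest at 10357 and 10226 TPM and complex II lowest at 711 and 741 TPM, and the bars of the pools differ little in every complex.

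Individual subunits spread over a far wider range than the pools did. Above 3 TPM, the study's limit for detectable expression, were 72 members in the alum-injected and 73 in the alum + KLH-immunized pool, with 71 in both, 74 in at least 1 pool and 9 at or below the limit in both. By the mean of the pools, 6 members exceeded 1000 TPM, 44 lay between 100 and 1000 TPM, 18 between 10 and 100 TPM, and 15 at or below 10 TPM. The median of the 74 detected members was 219 and 216 TPM, against 24.2 and 23.5 TPM for the 11648 genes above 3 TPM in a pool. Of the 500 most abundant genes in each pool, 22 were members. Among the detected members of a complex, the highest mean was 1097 times the lowest in complex I and 312 times in complex IV. It was 197 times in complex V, 181 times in complex III and 4.66 times in complex II. Without Ndufa4 it was 338 times in complex I. In complex IV the lowest was the testis form Cox7b2 at a mean of 3.56 TPM. The next lowest there was Cox6a1 at 138 TPM, beside 1109 TPM for Cox5a, the highest.

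**Figure D2:**
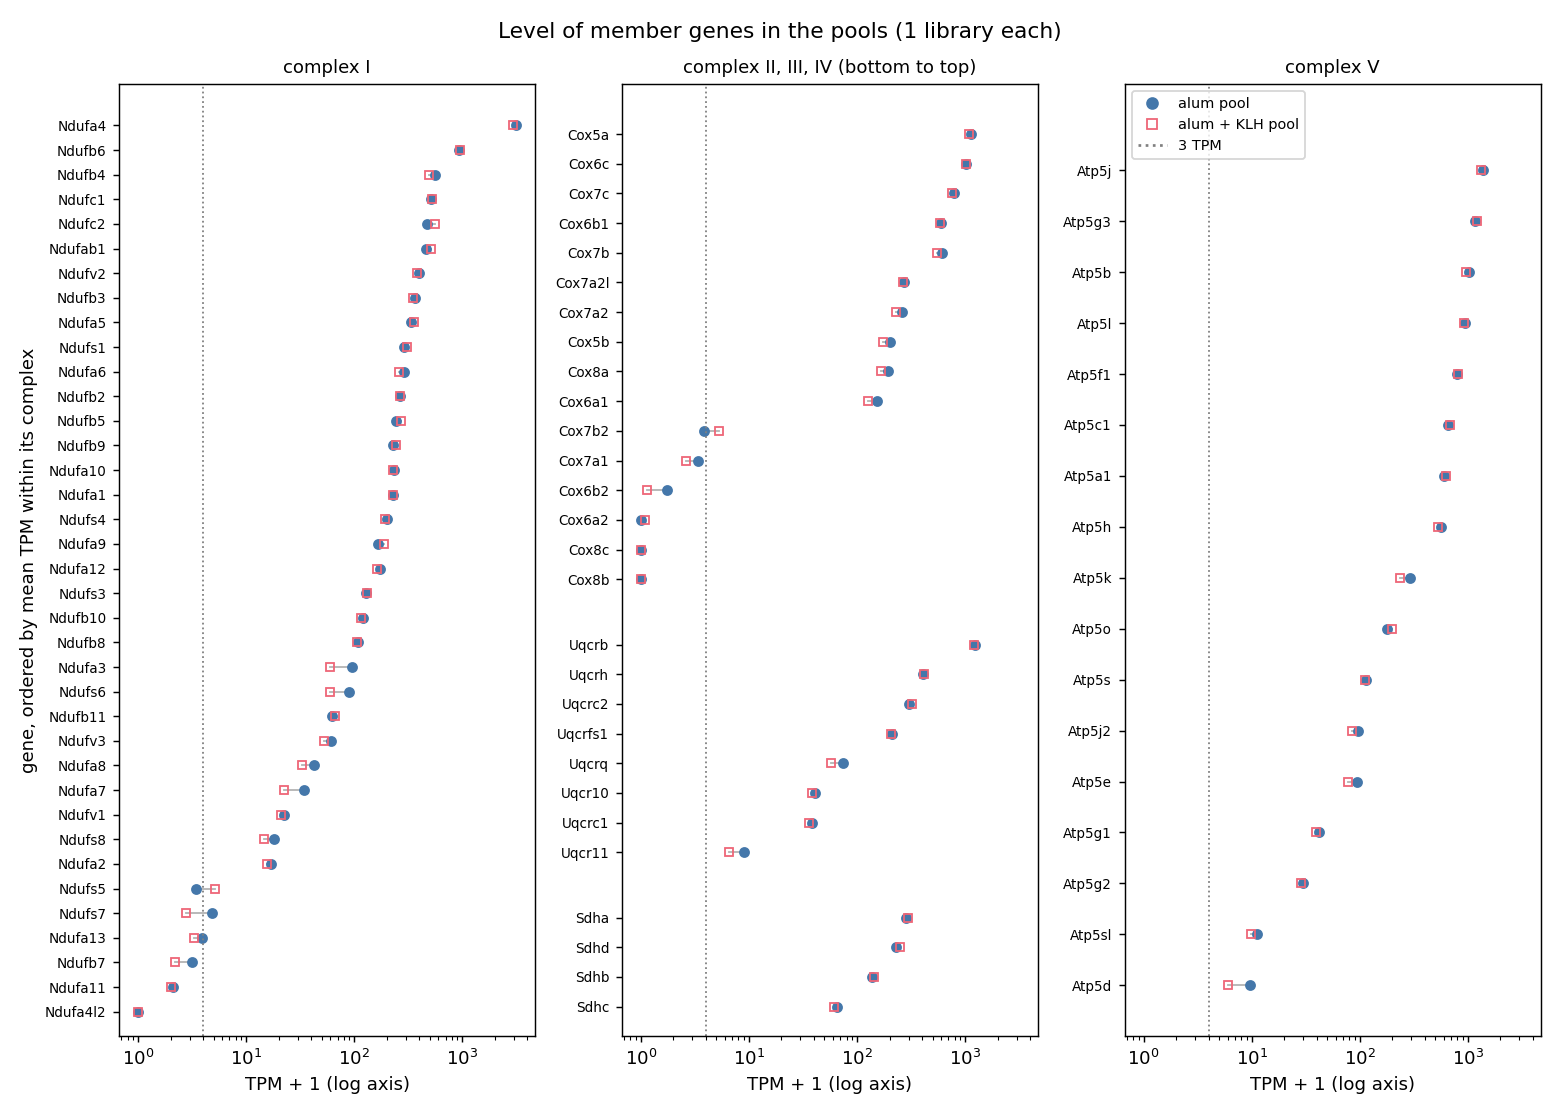
Level of 82 of the 83 member genes in the alum pool (filled circles) and the alum + KLH pool (open squares), as TPM + 1 on a log axis, ordered by mean level within each complex, with a dotted line at 3 TPM. The symbols of a gene mostly overlap between the pools, while levels within complex I run from 0 for Ndufa4l2 to 3141 and 2965 TPM for Ndufa4.

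The first 180 bases of the coding sequence of 4 members are shown because they contrast high with low levels and a low with a high GC content. They were read from the GENCODE M21 transcripts of GRCm38, in lower case with every G and C in capitals. Ndufa4 lies at chr6:11900292-11907483 (minus strand), Uqcrb at chr13:66900617-66905378 (minus strand), Ndufs7 at chr10:80249452-80256792 (plus strand) and Ndufb7 at chr8:83566671-83571626 (plus strand). G and C made up 51.7% of the stretch of Ndufa4, 42.8% of that of Uqcrb, 66.1% of that of Ndufs7 and 62.8% of that of Ndufb7.
Ndufa4: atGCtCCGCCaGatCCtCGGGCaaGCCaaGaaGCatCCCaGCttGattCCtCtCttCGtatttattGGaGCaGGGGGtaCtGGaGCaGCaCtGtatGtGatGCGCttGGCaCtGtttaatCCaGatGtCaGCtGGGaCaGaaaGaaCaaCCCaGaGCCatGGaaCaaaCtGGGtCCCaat
Uqcrb: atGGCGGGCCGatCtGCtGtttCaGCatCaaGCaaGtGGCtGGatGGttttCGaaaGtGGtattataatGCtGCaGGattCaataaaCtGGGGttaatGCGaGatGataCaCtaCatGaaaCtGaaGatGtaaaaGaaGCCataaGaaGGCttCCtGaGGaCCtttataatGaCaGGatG
Ndufs7: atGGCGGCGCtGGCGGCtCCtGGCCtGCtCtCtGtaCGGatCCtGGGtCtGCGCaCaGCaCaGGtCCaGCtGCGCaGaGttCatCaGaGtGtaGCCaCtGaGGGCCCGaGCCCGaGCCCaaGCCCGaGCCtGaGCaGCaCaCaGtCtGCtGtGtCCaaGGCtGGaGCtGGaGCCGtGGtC
Ndufb7: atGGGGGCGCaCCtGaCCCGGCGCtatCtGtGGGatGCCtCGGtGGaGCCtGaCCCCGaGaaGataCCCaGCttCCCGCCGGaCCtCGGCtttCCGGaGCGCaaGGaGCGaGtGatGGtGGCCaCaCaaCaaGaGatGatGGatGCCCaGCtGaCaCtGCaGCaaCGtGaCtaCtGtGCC

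Complex I, the NADH dehydrogenase, had its highest levels among accessory subunits. Apart from Ndufa4 at 3141 and 2965 TPM, the membrane-arm subunits Ndufb6, at 922 and 959.8 TPM, and Ndufb4, at 558 and 490.2 TPM, came next by the mean of the pools. The 7 nuclear core subunits, which carry the flavin and iron-sulfur clusters or line the path to ubiquinone, were all above 3 TPM without KLH and 6 of them with it. Their levels differed 140-fold. Ndufv2 was highest at 398 and 383 TPM and Ndufs1, which holds several of the iron-sulfur clusters, was at 289.6 and 306 TPM. Ndufv1, which binds NADH and the flavin beside Ndufv2, was at 21.4 and 20.0 TPM, far below its partner. Subunits near the ubiquinone site also parted, with Ndufs3 at 127 and 129 TPM, Ndufs8 at 16.9 and 13.6 TPM and Ndufs7 at 3.79 and 1.77 TPM. At the low end, the accessory subunit Ndufa11 was at 1.13 and 1.01 TPM, Ndufb7 at 2.13 and 1.2 TPM and Ndufa13, also known as GRIM-19, at 2.88 and 2.30 TPM. All 3 stayed at or below 3 TPM in both pools. Ndufab1, the mitochondrial acyl carrier protein, was at 457 and 513 TPM, and Ndufs4, whose loss in mice and humans causes a Leigh-like encephalopathy, at 199.7 and 193 TPM.

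Complex II, the succinate dehydrogenase shared with the citric acid cycle, was the most even, with only 4 genes. The flavoprotein gene Sdha was at 282 and 293 TPM and the iron-sulfur subunit gene Sdhb at 136 and 141 TPM. The membrane anchors stood at 63.9 and 59.7 TPM for Sdhc and 229 and 247 TPM for Sdhd. Sdha, Sdhb and Sdhd were slightly higher in the alum + KLH-immunized pool, with log2 ratios of (TPM + 1) of 0.05, 0.06 and 0.11, and Sdhc was slightly lower at -0.10. All 4 ratios were smaller than the standard deviation (SD) of the ratio over the 500 other genes closest in abundance, which was 0.19, 0.12, 0.18 and 0.13 in the same order.

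Complex III, the cytochrome bc1 complex, was led by Uqcrb, a small subunit near the ubiquinone pocket, at 1238 and 1219 TPM. Uqcrh, the hinge protein that helps to hold cytochrome c1, was at 407 and 415 TPM, and the core subunit Uqcrc2 at 299 and 321 TPM. Its partner core subunit Uqcrc1 was far lower at 37.0 and 35.3 TPM. The Rieske iron-sulfur protein gene Uqcrfs1 was at 211 and 207 TPM and the small subunit Uqcr11 lowest at 8.06 and 5.50 TPM. Cyc1, which encodes cytochrome c1 and falls outside the symbol rule, was at 23.0 and 22.2 TPM.

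Complex IV, the cytochrome c oxidase, was led by Cox5a at 1130.0 and 1088 TPM, Cox6c at 1027 and 1018 TPM and Cox7c at 785 and 760.3 TPM. These nuclear subunits surround the catalytic core that mitochondrial DNA encodes. Cox4i1, the largest nuclear subunit, is not taken by the symbol rule, and it was at 99.8 and 81.8 TPM. Of the 16 members, 5 were at or below 3 TPM in both pools, and all 5 were tissue-restricted isoforms.

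Isoform pairs were nearly exclusive. Where a subunit has a general and a muscle or testis form, the general form held at least 99% of the family sum in each pool. Cox6a1 was at 151 and 125 TPM, while its heart and muscle partner Cox6a2 was listed at 0 in the alum-injected pool and at 0.10 TPM in the other. Cox6b1 was at 595 and 587 TPM and held 99.9% of its family in the alum-injected pool and more in the other, beside 0.74 and 0.14 TPM for the testis form Cox6b2. Cox7a2 was at 258 and 227 TPM, or 99.1% and 99.3%, beside 2.36 and 1.63 TPM for the muscle form Cox7a1. Cox8a was at 191 and 167 TPM, with the muscle form Cox8b and the testis form Cox8c listed at 0 in both pools. Cox7b was at 605 and 554 TPM, and the testis form Cox7b2 at 2.82 and 4.29 TPM, the only tissue-restricted isoform to pass 3 TPM in a pool. Ndufa4l2, a hypoxia-induced relative of Ndufa4, was listed at 0 in both pools. The c subunit of complex V, whose ring turns in the membrane, is made as the same mature protein from several genes, and Atp5g3 supplied most of its transcripts at 1153 and 1212 TPM, or 94.3% and 94.8% of the family. Atp5g1 was at 40.9 and 38.5 TPM and Atp5g2 at 29.1 and 27.4 TPM.

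**Figure D3:**
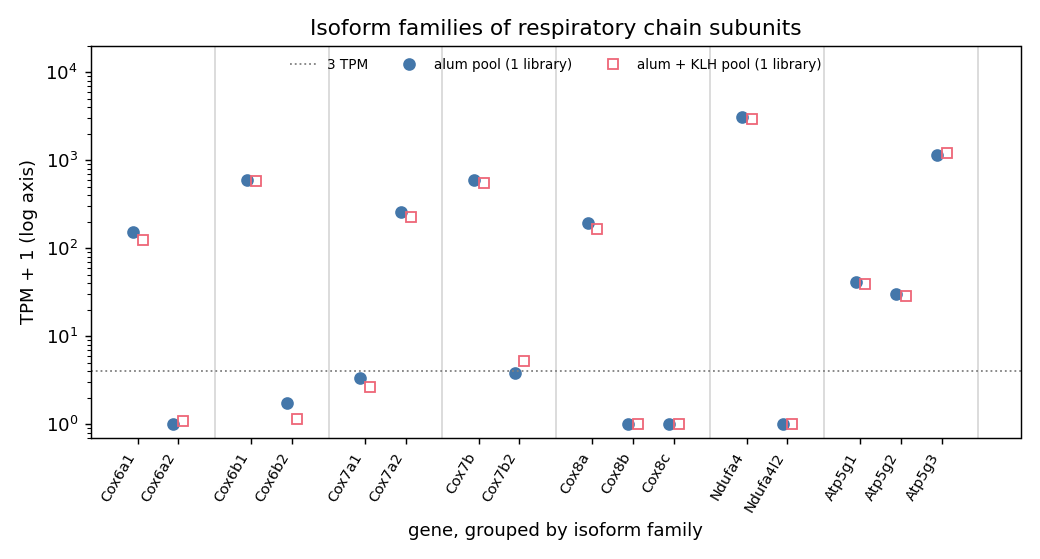
Level of the genes of 7 isoform families in the alum pool (filled circles) and the alum + KLH pool (open squares), as TPM + 1 on a log axis with a dotted line at 3 TPM. In each family a single gene stands above 100 TPM in both pools, and Cox7b2 lies on either side of 3 TPM with 2.82 and 4.29 TPM.

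Complex V, the ATP synthase, showed high levels for most parts of the motor and a low level for its delta subunit. The catalytic beta subunit gene Atp5b was at 1033 and 965 TPM, the alpha subunit gene Atp5a1 at 602 and 623 TPM and the rotating gamma subunit gene Atp5c1 at 656 and 688 TPM. The delta and epsilon subunits join gamma in the central stalk, and their genes were at 8.68 and 5.0 TPM for Atp5d and 92.4 and 77.6 TPM for Atp5e. In the membrane and outer stalk, Atp5j, which encodes coupling factor 6, was the highest at 1382 and 1313 TPM, followed by Atp5g3. Atp5f1, the b subunit, was at 788 and 803 TPM and Atp5o, the oligomycin sensitivity protein, at 179.6 and 196 TPM. The lowest besides Atp5d was Atp5sl at 10.2 and 8.91 TPM, an Atp5s-related gene rather than a subunit.

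Genes that work with the complexes were read from lists, in which a gene was called lower or higher where the log2 ratio of (TPM + 1) was at or past 0.32 in that direction, and its level above 3 TPM in at least 1 pool. Over all such genes 5.39% were lower and 2.29% higher, so that 0 or 1 call in lists as short as these is near that background. None of 7 detected carriers and exchangers was called. They include cytochrome c, Cycs, at 479 and 510.4 TPM and the ATP/ADP exchanger Slc25a4 at 1967 and 2275 TPM. A log2 ratio above 0 was found for 6 of the 7, beside 5079 of all 11648 detected genes. It was also found for 10 of 13 complex I assembly factors and 7 of 9 biogenesis regulators. Among assembly factors it was found for 2 of 4 for complex II and 3 of 6 for complex III. For complexes IV and V it was 9 of 19 and 2 of 3, and among subunits and factors outside the rule 1 of 5. No assembly factor was called among 13 for complex I, 4 for complex II, 6 for complex III and 3 for complex V, and of 19 detected factors for complex IV only Coa4 was, at 10.3 and 7.73 TPM. Sco2, which brings copper to complex IV, was listed at 0 in both pools, beside 12.5 and 12.9 TPM for its relative Sco1. Of 9 detected regulators of mitochondrial biogenesis none was called, and the coactivator Ppargc1a was at 18.7 and 22.6 TPM with a log2 ratio of 0.26. Of the 5 detected subunits and factors outside the rule none was called, with Usmg5, a small ATP synthase subunit, highest at 2286 and 2041 TPM.

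Between the pools, the 74 detected members had a median log2 ratio of (TPM + 1) of -0.05, with an interquartile range from -0.16 to 0.05, beside a median of -0.02 over all 11648 detected genes. The ratio was positive for 24 members and negative for 50, against 5079 and 6569 of all detected genes. It was within 1 SD of the 500 genes of like abundance for 53 of the 74. By complex, the median of the detected members was -0.05 for complexes I, III and IV, 0.06 for complex II and -0.09 for complex V. By the log2 limit of 0.32, 8 members, or 10.8%, were lower in the alum + KLH-immunized pool, beside 5.39% of all detected genes, and 2, or 2.70%, were higher, beside 2.29%. On this (TPM + 1) scale no member differed 2-fold, as 1.64% of all detected genes did. Ndufs7 passed 3 TPM in the alum-injected pool alone and Ndufs5 and Cox7b2 in the alum + KLH-immunized pool alone, so these 3 entered through the pool in which they were high. Of the 71 members above 3 TPM in both pools, 7 were lower, or 9.86%, beside 3.97% of such genes, and 0 were higher, beside 1.47%. Of the 63 members with a mean above 30 TPM, 4 were lower, or 6.35%, beside 1.81% of such genes, and 0 were higher, beside 0.83%. A ratio on the (TPM + 1) scale understates the change of genes at low levels.

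**Figure D4:**
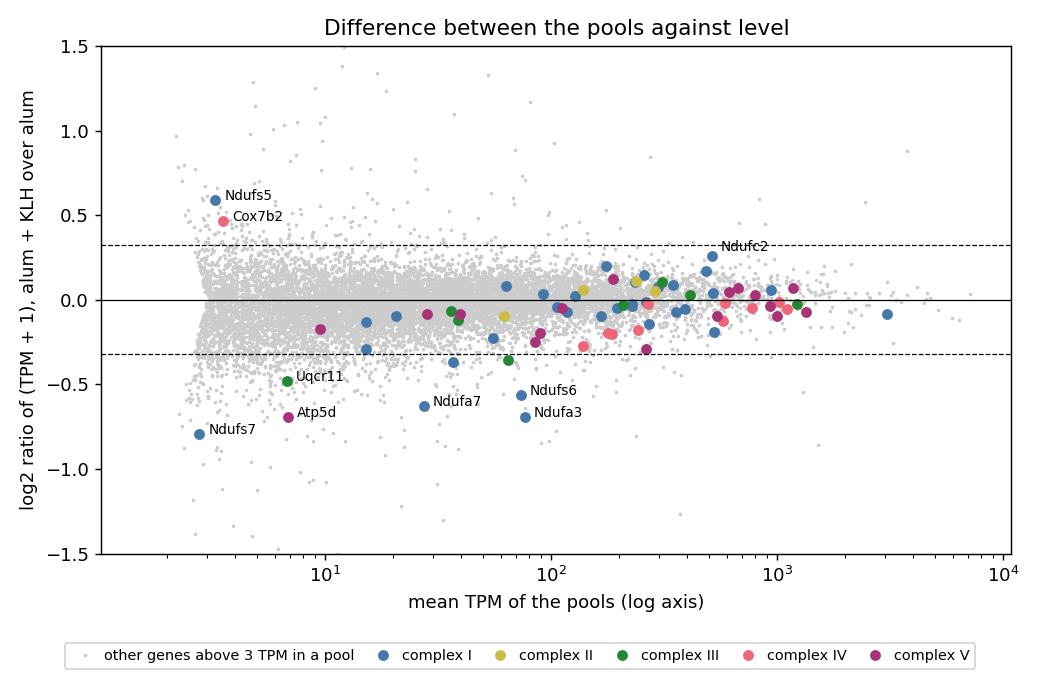
Log2 ratio of (TPM + 1), alum + KLH over alum, against the mean TPM of the pools on a log axis, for member genes coloured by complex and for all other genes above 3 TPM in a pool in grey. Dashed lines mark a log2 ratio of 0.32 in either direction, 161 other genes lie outside the plotted range, and the members past the lines are 8 below and 2 above.

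The 8 lower members came from complexes I, III and V. Ndufa3, a small membrane-anchored accessory subunit of complex I at chr7:3617373-3620327 (plus strand), was at 94.6 and 58.2 TPM, a log2 ratio of -0.69 beside an SD of 0.14 over genes of like abundance. Only 0.6% of those genes differed as far. Ndufs6, a zinc-binding accessory subunit that joins late in assembly, was at 87.8 and 59.2 TPM, a log2 ratio of -0.56. Ndufa7 was at 33.4 and 21.3 TPM (-0.63), and the intermembrane-space subunit Ndufa8 at 41.6 and 32.0 TPM (-0.36). These 4 accessory subunits stood well above the detection limit in both pools. Most of the Ndufa7 value lay on the noncoding row NR_103516, at 26.3 and 17.9 TPM. Its coding row NM_023202 was at 4.84 and 0.98 TPM, and how reads were divided among these overlapping rows cannot be checked in the files. In complex III, Uqcrq, which binds near cytochrome b, was at 72.7 and 56.7 TPM (-0.35) and Uqcr11 at 8.06 and 5.50 TPM (-0.48). In complex V, Atp5d was at 8.68 and 5.0 TPM (-0.69). The core subunit Ndufs7 had the lowest log2 ratio, -0.79, but at 3.79 and 1.77 TPM it stood where the SD of like genes was 0.68. Of those genes, 3.2% differed as far. The 2 higher members were Ndufs5 at 2.42 and 4.14 TPM and Cox7b2 at 2.82 and 4.29 TPM. Their log2 ratios were 0.59 and 0.47, beside SDs of 0.52 and 0.53 at their low level. Of the genes of like abundance, 3.8% and 5.4% differed as far.

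Among members above 10 TPM, the 5 highest log2 ratios were in complexes I and V. Ndufc2, a membrane-arm accessory subunit, was at 468 and 561 TPM, a log2 ratio of 0.26 beside an SD of 0.16, and 3% of genes of like abundance differed as far. Ndufa9, at the junction of the arms, was at 164 and 188 TPM (0.20). Ndufab1 followed with a log2 ratio of 0.17, Ndufb5, at 245 and 271 TPM, with 0.15, and Atp5o with 0.12. None of the 5 reached the limit of 0.32. On the lower side, Atp5k at -0.29, Ndufs8 at -0.29 and Cox6a1 at -0.27 lay just inside it.

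Other large protein assemblies served as a comparison, described by counts alone. The 75 detected mitochondrial ribosomal protein genes had a median log2 ratio of -0.04, with 5 lower, or 6.67%, beside 5.39% of all detected genes, and 0 higher, beside 2.29%. The 36 detected proteasome subunit genes had the same median of -0.04, with 0 in either direction. The 83 detected cytosolic ribosomal protein genes had a median of -0.19, with 23 lower, or 27.7%, and 1 higher. The median of the respiratory chain genes lay near those of the first and second of these groups.

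Level and ratio both moved with the base composition of the transcripts. GC content was taken from the GENCODE M21 transcript paired with the highest row of each gene, which was found for all 83 members and for 11440 of the 11648 detected genes. Across the 74 detected members, Spearman's rho between the mean level on the log2(TPM + 1) scale and GC content was -0.52 (Pearson's r = -0.43), and over all 83 members it was -0.58 (Pearson's r = -0.49). Between the log2 ratio and GC content it was -0.46 over the detected members (Pearson's r = -0.48). Over 11366 other detected genes rho was -0.33 for the level (Pearson's r = -0.32) and -0.46 for the ratio, with a Pearson's r of -0.19 for the ratio that was closer to 0 than that of the members. With transcript length, rho was 0.03 for the level and 0.24 for the ratio of the detected members. These correlations run across genes that share the same 2 libraries and are descriptions.

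The median level stepped down with GC content. It was 357 TPM for the 9 members at or below 45% GC, 293 TPM for the 22 from 45 to 50%, 166 TPM for the 29 from 50 to 55%, 32.2 TPM for the 20 from 55 to 60%, and 2.78 TPM for the 3 above 60%. Those 3 were Ndufs7, Atp5d and Ndufa13, with 60.7, 61.1 and 60.4% GC. These medians include members at or below 3 TPM. Over the detected members alone they were 357, 298, 188, 55.7 and 4.81 TPM in the same 5 ranges. The G and C capitals of Ndufs7 and Ndufb7 above, beside those of Uqcrb, show the same contrast at the level of bases. The stretch of Ndufa4, the most abundant member, lay between them with 51.7%, while its whole transcript had 44.1% GC. Among the exceptions, Atp5j had 56.0% GC over its whole transcript and a high level, though its coding sequence alone had 43.4%. Ndufb9, Cox8a and Cox6a1 had 55.4, 58.5 and 58.8% GC at mean levels of 235, 179 and 138 TPM, with 53.3, 64.8 and 64.3% in their coding sequences. In the other direction, Cox7b2 had 36.7% GC at 3.56 TPM. Lower members were 0 of the 9 detected at or below 45% GC, 0 of 21 from 45 to 50%, 4 of 27 from 50 to 55%, 2 of 15 from 55 to 60% and 2 of 2 above 60%. Among other detected genes, the share that was lower over the same 5 ranges was 2.33, 2.03, 4.05, 15.4 and 33.2%.

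When the median ratio of the 500 other detected genes closest in GC content was taken off each ratio, 6 members were lower and 2 higher by the same limit, beside 2.74% and 2.65% of detected genes treated alike. This setting was chosen after the data had been seen. Ndufa3 kept a difference of -0.65, Ndufs7 of -0.58, Ndufa7 of -0.52, Atp5d of -0.48, Ndufs6 of -0.43 and Uqcrq, at the edge of the limit, of -0.32. Over the 500 genes of like GC content for each, the SD of the ratio was 0.39, 0.38, 0.20, 0.40, 0.28 and 0.35 in the same order. Uqcr11 and Ndufa8 moved inside the limit, to -0.28 and -0.26. The part of base composition in the levels and ratios was not tested.

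**Figure D5:**
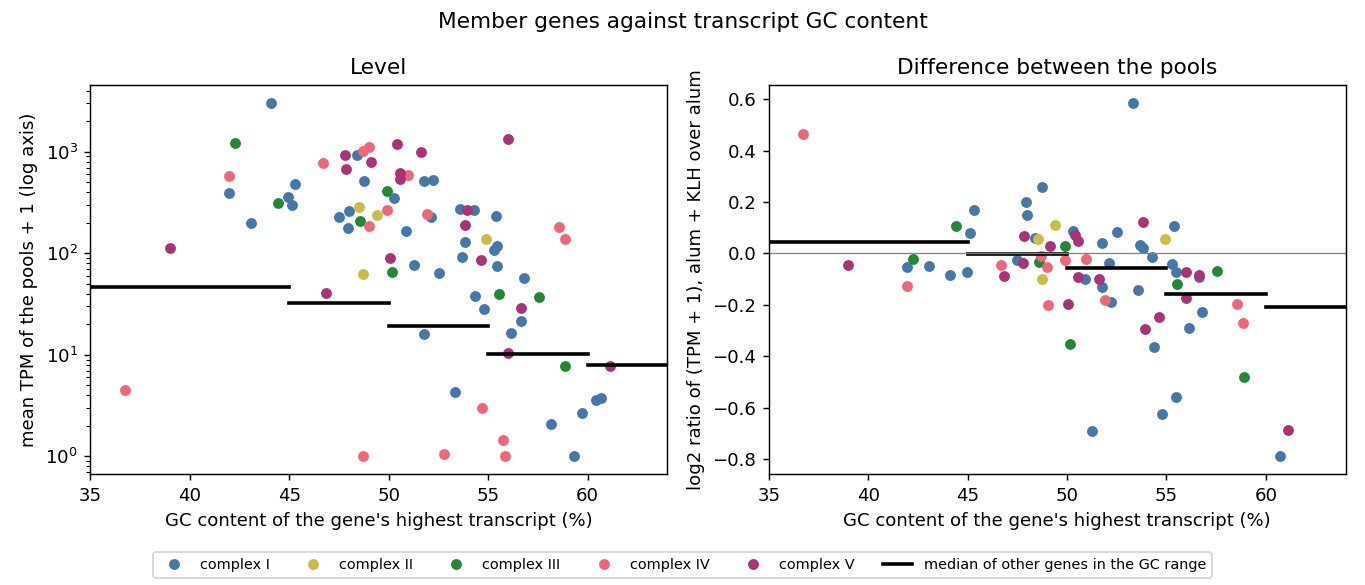
GC content of the transcript of each member gene, in percent, against its mean TPM + 1 on a log axis (left, 83 members) and against the log2 ratio of (TPM + 1), alum + KLH over alum (right, 74 detected members), with black bars for the median of other detected genes in 5 ranges of GC. The 3 members above 60% GC have a median level of 2.78 TPM, and the 2 of them that were detected a median log2 ratio of -0.74. Of these 2, Ndufs7 passed 3 TPM only in the alum pool, in which it was high. The left panel includes members at or below 3 TPM, while the bars leave out such genes. The bars of other genes step down in both panels.

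Members seldom shared sequence with other genes in the files, and more often with annotated genes outside them. Of the 83 highest transcripts, 64 had no run of 31 bases in common with a transcript of another gene in the files, in either orientation, and 6 shared 10% or more of their runs. Cox7c shared the most, 43.7%, with the predicted gene Gm10012, which was itself at 56.8 and 52.0 TPM, so the value of Cox7c is uncertain to that extent. Uqcrc2 shared 25.6% with Pdzd9, a neighbour at 0.86 and 0.53 TPM. Ndufa13, one of the low members, shared 28.3% with Tssk6, which was listed at 0 in both pools. Counting every annotated gene, pseudogenes included, 37 members shared 10% or more of their runs and 7 at least 50%, among them Atp5g2 with 87.7%, Atp5l with 85.4% and Uqcrb with 58.2%. Of the called members, Ndufs5 shared 47.3%, Ndufs6 26.8%, Uqcr11 19.5% and Ndufa7 11.5%, while Ndufa3, Ndufa8, Uqcrq, Atp5d and Ndufs7 shared none. Reads from such genes outside the files could not be seen, and the values of these members are uncertain to that extent.

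Promoters of 70 members were matched by symbol in RefSeq sequences of GRCm38.p6 around each start that RefSeq annotates, which can differ from the GENCODE start. Letters known for regulators of these genes were searched on both strands, none of them contained in another. GCGCNTGCG, the core of the site of nuclear respiratory factor 1 (NRF1), was found in 24 of the 70, or 34.3%, beside 7.12% of the promoters of 27025 genes. AANATGGCG, a core of YY1 sites, was found in 11, or 15.7%, beside 2.76%, and CCGGAAG, a core of ETS factor sites such as that of GABP, in 16, or 22.9%, beside 9.93%. Detected genes hold these letters more often than all genes do, with 15.7%, 5.95% and 19.8% of the 9021 whose promoters were matched. The members with the NRF1 letters had a median mean level of 152 TPM and those without 192 TPM. The promoter of Ndufb4 is shown because it holds the NRF1 letters 3 times, in capitals, at chr16:37654319-37654618 (minus strand). A match describes letters and does not show binding.
Ndufb4: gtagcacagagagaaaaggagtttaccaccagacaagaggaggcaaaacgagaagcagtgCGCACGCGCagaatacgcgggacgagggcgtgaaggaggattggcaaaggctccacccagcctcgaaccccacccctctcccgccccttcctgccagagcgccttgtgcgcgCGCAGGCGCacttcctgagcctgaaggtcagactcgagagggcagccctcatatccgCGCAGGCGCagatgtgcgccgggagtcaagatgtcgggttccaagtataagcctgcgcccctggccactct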

How the data were processed

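RNA-seq was read from 2 libraries, each from the DRG neurons of 10 pooled mice. The authors made stranded mRNA libraries, trimmed paired-end reads with cutadapt and quantified them with kallisto on the annotated mm10 transcriptome, as the submitters' processing notes also list, and tool versions are not given in the sources used here. The deposited tables give TPM for each RefSeq transcript, scaled by the authors to 1000000 per library, so read depth and its precision are not known from the files. A minimum read depth per sample is stated in the study's methods, but not the reads behind each value. TPM was summed per gene symbol. The values of 1 member are not reported here, while sums and counts include it. Differences were log2 ratios of (TPM + 1), set beside their SD over the 500 non-member genes closest in mean log2(TPM + 1). Members and lists were chosen with earlier results of these data known. Named genes were the 3 highest and 2 lowest of complexes I, III, IV and V, complex II, the isoform families, and the 5 largest and 5 smallest ratios above 10 TPM; others were named after their values were seen. Alternatives were pseudocounts of 0.1 and 0.5 TPM, thresholds of 1 and 10 TPM, no filter, single rows, coding rows, rescaling by the median ratio (0.987), TPM relative to Hprt, other memberships and, added later, GC content. Scripts were tested on simulated data and used Python 3.11.15, numpy 2.4.6, pandas 2.3.3 and matplotlib 3.10.9.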

Additional observations from a re-analysis of the deposited data

How the results depend on the processing

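With only genes above 10 TPM in a pool, 5 members were lower by the log2 limit of 0.32 and 0 higher, since the members left out were below that level, beside 3.43% and 1.3% of all genes so filtered. With no filter 11 were lower and 2 higher, beside 4.34% and 2.17% of all genes. Relative to Hprt 12 were lower and 2 higher, beside 9.51% and 1.6% of all genes, whose median log2 ratio was then -0.10. The median log2 ratio of the members stayed negative in every setting run, from -0.14 relative to Hprt to -0.01 after the GC adjustment. The summed log2 ratio ranged from -0.10 to 0.01 for complex I, from -0.02 to 0.08 for complex II, from -0.10 to 0.01 for complex III, from -0.15 to -0.05 for complex IV and from -0.11 to -0.01 for complex V. None of the 10 called members changed direction under the rescalings or the GC adjustment. These shifted each of their ratios by less than the limit of 0.32, so no call could have been reversed. A pseudocount cannot change a direction either. A row choice could do so only for Ndufa7 and Ndufs6, the called members with more than 1 row, and both stayed lower. On coding rows alone the log2 ratio of Ndufa7 was -1.56, and on its highest row that of Atp5g1 was -0.31. Leaving out a replicate was not possible with 1 library per group. No paired analysis was possible because each group has 1 library and no test was made.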

Other observations

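The lower members Atp5d, Ndufs7 and Uqcr11 lie within 265 kb of each other, at chr10:80142315-80406830, a window drawn after their values were seen. Of the 9 other genes above 3 TPM in a pool between them, 2 were lower by the log2 limit of 0.32 in the alum + KLH-immunized pool and 1 was higher, beside 5.39% and 2.29% of all detected genes and, for the lower ones, 15.4% of other detected genes with 55 to 60% GC. Their median log2 ratio was -0.11 at a median GC content of 58.0%. The lower ones were Rps15, a cytosolic ribosomal protein gene, at 11.0 and 6.31 TPM, and Gamt, which makes creatine, at 5.32 and 4.01 TPM. The higher one was 1600002K03Rik at 2.23 and 3.17 TPM, which passed 3 TPM only in the pool in which it was high, as Ndufs7 did in the other pool.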
